A study of Mus musculus with 20 samples.

Results

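Interferon-stimulated genes are described here in hippocampus from mice with an Fkbp5 knockout and from wild-type mice, taken 7 days after lipopolysaccharide (LPS, from the outer membrane of bacteria, a strong inducer of inflammation) or saline was injected. They are 37 genes taken from a list of interferon response symbols, and all 37 were found among the 55536 genes of the table. Enough counts for a test were present for 34 of them, out of 16419 genes tested in all. Oas1a, Oas2 and Zbp1 stayed under the filter on low counts. The animals were male, 12 weeks old and of the strain labelled C57BL/6J, and each received 1 intraperitoneal injection. The groups of 5 libraries were Fkbp5 knockout after 3 mg/kg LPS (KO LPS), Fkbp5 knockout after saline (KO saline), wild-type after 3 mg/kg LPS (WT LPS) and wild-type after saline (WT saline). All were sampled on day 7, so the time of the acute response to LPS was not measured. FKBP5 works with the chaperone HSP90 and dampens signalling by the glucocorticoid receptor. How the knockout was made is not given in the sources used here.

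Interferons are secreted proteins that bind receptors on the same or on neighbouring cells. The type I receptor activates the kinases JAK1 and TYK2, which phosphorylate STAT proteins, and STAT2 is part, with IRF9, of a complex called ISGF3. ISGF3 binds a DNA element in front of many target genes, the interferon-stimulated response element, and the targets include antiviral effectors, RNA sensors and the transcription factor IRF7, which extends the response. In the brain, microglia, astrocytes, endothelial cells and neurons can all carry out this response.

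That element was looked for in the promoters of the members, because many interferon-stimulated genes are known to carry it. RefSeq promoter windows of 250 bases before to 50 bases after the transcription start (GRCm38.p6) were at hand for 30 of the 37 members. The core of the element, searched as GAAA, any 2 bases and GAAA again on either strand, was present in 14 of those 30 members (46.7%), and in 1079 of 27025 genes with a window (3.99%). The letters TTCNNNGAA, the core of the gamma-activated site, were present in 7 of 30 members (23.3%) and in 2582 of all genes (9.55%). The promoters of 4 members held both motifs, and those of 13 held neither. The stretches below are those with a match in front of the start site, and the levels or differences of these genes are described further on. Each is written 5′ to 3′ along the gene's strand, capitals mark every match to the element's core or to its reverse complement, and positions are on mm10.
Bst2 (chr8:71537573-71537622, minus strand): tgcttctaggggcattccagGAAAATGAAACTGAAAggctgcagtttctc
Isg15 (chr4:156200867-156200916, minus strand): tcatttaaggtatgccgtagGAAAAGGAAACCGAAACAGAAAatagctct
Ifit1 (chr19:34640765-34640814, plus strand): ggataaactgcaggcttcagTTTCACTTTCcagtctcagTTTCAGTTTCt
Ifit3 (chr19:34583353-34583402, plus strand): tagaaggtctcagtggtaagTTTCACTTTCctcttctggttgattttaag
Ifit3b (chr19:34607749-34607798, plus strand): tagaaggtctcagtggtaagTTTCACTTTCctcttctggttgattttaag
Oas1a (chr5:120907516-120907565, minus strand): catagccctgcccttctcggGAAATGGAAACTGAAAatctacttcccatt
Rsad2 (chr12:26456543-26456592, minus strand): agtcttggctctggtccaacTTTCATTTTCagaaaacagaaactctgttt
Stat2 (chr10:128270256-128270305, plus strand): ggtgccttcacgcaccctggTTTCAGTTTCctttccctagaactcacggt
Trim30a (chr7:104465200-104465249, minus strand): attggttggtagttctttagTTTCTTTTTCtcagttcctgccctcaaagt

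In Bst2, Isg15 and Oas1a the matches overlapped one another, so that the repeats of GAAA ran on. In Ifit1 there was a pair of separate matches on the other strand. The windows of Ifit3 and Ifit3b also held 2 matches each, and the printed stretches show only the first. The stretches of Ifit3 and Ifit3b held the same 50 bases, while their whole promoter windows were identical at 259 of 340 aligned positions (76.2%). The windows of Irf7, Lgals3bp, Ifi44, Dtx3l, Parp12 and Trim25, which are also described below, held no match to the element's core. A match is a description of letters, and no binding was measured.

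Libraries held 16652992 to 27230202 counts each. Fkbp5 itself ran from 25.1 to 35.1 CPM in KO LPS, 26.8 to 36.0 CPM in KO saline, 60.3 to 73.4 CPM in WT LPS and 56.7 to 71.9 CPM in WT saline, where CPM is counts scaled to a common library total. Its log2 fold change of knockout over wild-type was -1.17 after LPS (adjusted p = 7.05e-06) and -1.04 after saline (adjusted p = 2.79e-05, edgeR). The libraries fell into 2 sets in every group, replicates 3 to 5 and replicates 1 and 2. Mitochondrial transcripts took 9.60% of counts in replicates 3 to 5 and 5.05% in replicates 1 and 2. In replicates 3 to 5, 21064 to 22247 genes were detected, against 23650 to 25237 in replicates 1 and 2. The first principal component held 52.9% of the variance, and its scores were not compared with the sets. What the replicate numbers stand for is not given in the sources used here, nor whether the replicates were separate animals, so p-values measure the spread between these libraries. Markers of hippocampal neurons summed to 1005 to 1588 CPM in every library. In whole tissue, fewer cells of a type and less RNA per cell cannot be told apart.

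Most members were transcripts of low level. Scaled by exon length, the order over all 20 libraries ran from Ifi27 (20.3 CPM per kb), a small hydrophobic protein of internal membranes, through Ifitm3 (12.4), which blocks the entry of viruses, Lgals3bp (6.48), a secreted glycoprotein that binds galectins, Cmpk2 (6.29), a mitochondrial nucleotide kinase, and Bst2 (4.40), the tetherin that holds budding virus at the cell surface, down to Ifi44 (0.0783), Oas2 (0.0720) and Zbp1 (0.0501 CPM per kb), a sensor of Z-form nucleic acids. Zbp1 had 75 counts in all libraries together and none in 4 of them. The members summed to 182.6 to 226.6 CPM in KO LPS, 178.1 to 192.0 CPM in KO saline, 187.2 to 256.2 CPM in WT LPS and 174.2 to 217.5 CPM in WT saline, and these ranges overlapped. The highest sum, 256.2 CPM, came from 1 library, WT LPS replicate 1, and the other 4 WT LPS libraries lay between 187.2 and 203.0 CPM.

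LPS against saline was the first comparison. No interferon-stimulated gene passed the threshold of an adjusted p under 0.05 in edgeR's quasi-likelihood test, in either genotype. In the knockout, 0 of 34 members were called, against 0.00609% of all genes tested. In the wild-type, 0 of 34 were called, against 0% of all genes. DESeq2 also called 0 members in each. At an unadjusted p under 0.05, 3 of 34 members differed in the knockout (1.75% of all genes) and 3 of 34 in the wild-type (2.07% of all genes). Averaged over both genotypes, 0 of 34 members were called by edgeR (0.0426% of all genes) and 0 by DESeq2. In edgeR 6 members had an unadjusted p under 0.05 (2.71% of all genes), all of them above 0 (1.97% of all genes). They were Bst2, Ifitm3, Irf7, Lgals3bp, Parp14 and Trim30a.

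The direction of the small differences was uneven. Above 0 were 24 of 34 members in the knockout (53.1% of all genes), with a median log2 fold change of 0.07 (0.01 over all genes). In the wild-type 28 of 34 were above 0 (44.8% of all genes), with a median of 0.21 (-0.02 over all genes). Averaged over the genotypes 25 of 34 were above 0 (49.3% of all genes), with a median of 0.15, or 0.04 without WT LPS replicate 1. The wild-type median rested on WT LPS replicate 1: without it, 20 of 34 members were above 0 and the median was 0.05. No member had groups that did not overlap in either genotype. Of all genes, 0.286% lay higher and 0.104% lower without overlap in the knockout, and 0.274% and 0.171% in the wild-type.

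**Figure D1:**
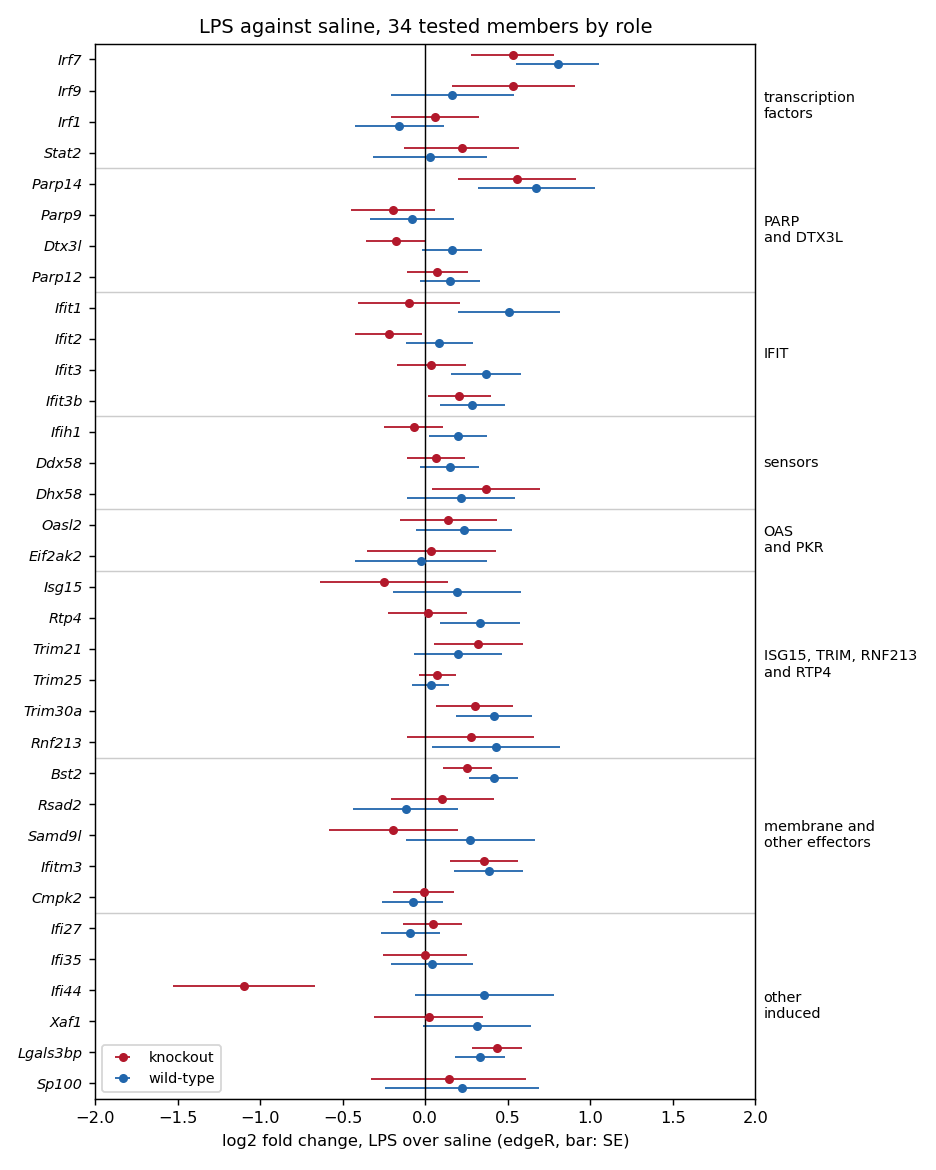
Each row is 1 of the 34 tested members, grouped by role, with the edgeR log2 fold change of LPS over saline on the horizontal axis and its SE as a bar, for knockout and wild-type. Most points lie within 0.5 of 0, and Ifi44 in the knockout stands apart at -1.10.

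Among the transcription factors, Irf7 (chr7:141262706-141266481), the factor that drives type I interferon genes, had the smallest p of the list after LPS in the wild-type and averaged over the genotypes. Replicates 1 to 5 stood at 2.57, 1.99, 1.47, 1.47 and 2.38 CPM in KO LPS, 1.63, 1.32, 1.15, 1.47 and 1.27 CPM in KO saline, 2.64, 2.27, 3.09, 2.52 and 2.22 CPM in WT LPS and 2.56, 1.15, 0.854, 1.54 and 1.16 CPM in WT saline. All 5 WT LPS libraries lay above 4 of the 5 WT saline libraries, and WT saline replicate 1 lay among the WT LPS values. In the knockout, 3 of 5 LPS libraries lay above every saline library. The log2 fold change was 0.53 ± 0.25 in the knockout and 0.80 ± 0.25 in the wild-type (SE, unadjusted p 0.049 and 0.0047, adjusted p = 1.00 in each, edgeR), and 0.67 ± 0.18 averaged over the genotypes (adjusted p = 0.643). With 1 library left out the wild-type value lay between 0.66 and 1.11, the highest without WT saline replicate 1 (adjusted p = 0.69). Within replicates 1 and 2 alone it was 0.43 (unadjusted p 0.32), and within replicates 3 to 5 alone 1.15 (unadjusted p 0.00084, adjusted p = 0.862, edgeR). Over all alternatives its adjusted p was 0.69 to 1.00.

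The other factors of the group showed a different pattern. Irf9 and Stat2, which both belong to ISGF3, had log2 fold changes of 0.53 and 0.22 in the knockout and of 0.16 and 0.03 in the wild-type, with SEs of 0.35 to 0.37. Irf9 averaged 8.67 ± 5.23 CPM in KO LPS, 6.00 ± 1.35 CPM in KO saline, 8.15 ± 3.92 CPM in WT LPS and 7.29 ± 4.19 CPM in WT saline. In 3 of these groups the spread came mostly from replicate 1, which stood at 17.9 CPM in KO LPS, 14.8 CPM in WT LPS and 14.7 CPM in WT saline, while the other libraries of those 3 groups lay between 4.70 and 8.16 CPM. Stat2 was high in the same libraries, at 29.3 CPM in KO LPS, 31.3 CPM in WT LPS and 32.1 CPM in WT saline. Irf1, a factor induced by interferon gamma, had 0.06 in the knockout and -0.16 in the wild-type.

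**Figure D2:**
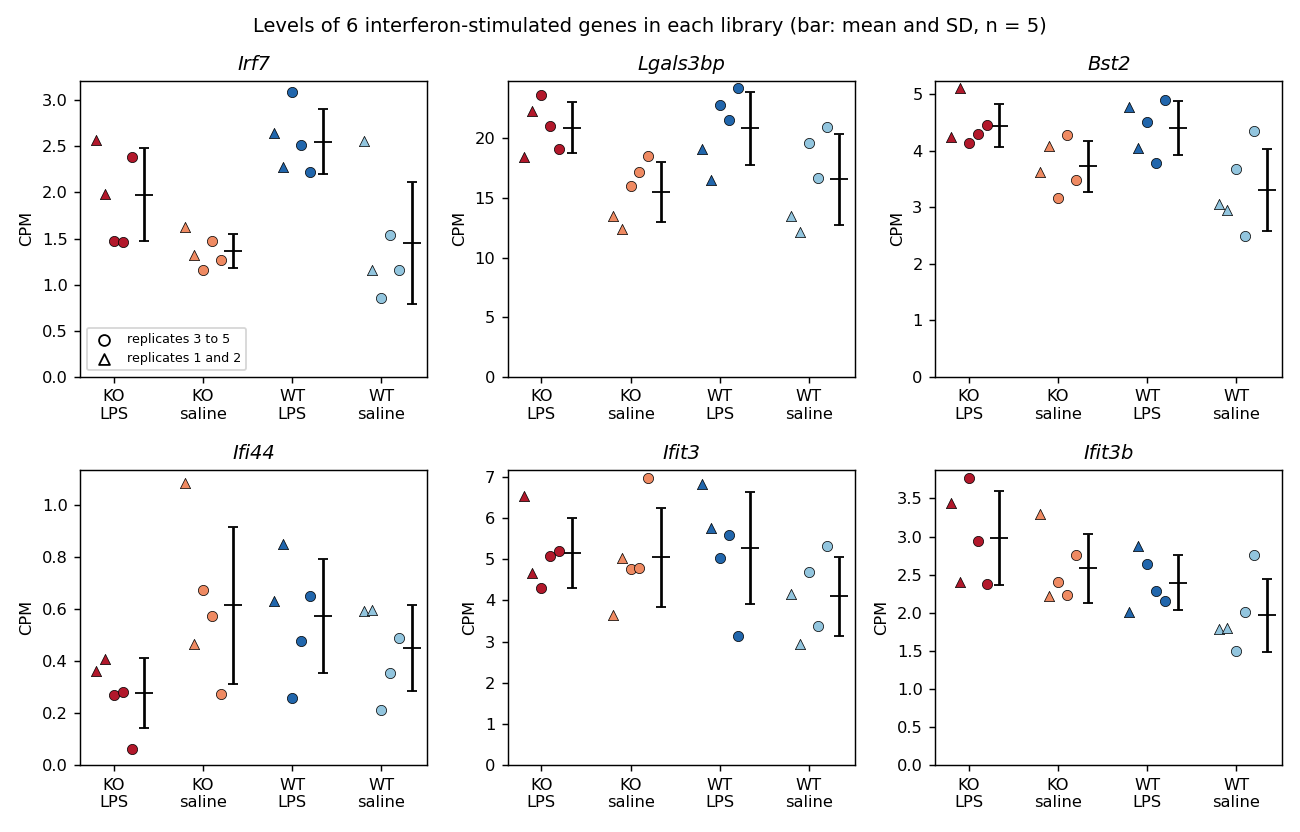
CPM of 6 members in every library by group, with replicates 3 to 5 as circles and replicates 1 and 2 as triangles, and the mean and SD (n = 5) as a bar. Irf7, Lgals3bp and Bst2 lie mostly higher in the LPS groups with overlap, and Ifi44 lies lowest in KO LPS.

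Lgals3bp (chr11:118392751-118402092) was the member whose LPS libraries lay highest most regularly. Replicates 1 to 5 had 18.4, 22.3, 23.7, 21.1 and 19.1 CPM in KO LPS, 13.5, 12.4, 16.0, 17.1 and 18.5 CPM in KO saline, 19.1, 16.5, 22.8, 21.5 and 24.2 CPM in WT LPS and 13.5, 12.1, 19.6, 16.6 and 20.9 CPM in WT saline. In the knockout 4 of 5 LPS libraries lay above every saline library. Within each library set of each genotype, every LPS library lay above every saline library, which held for 1 of 34 members and for 0.0974% of all genes tested. The log2 fold change was 0.43 ± 0.15 in the knockout (unadjusted p 0.010) and 0.33 ± 0.15 in the wild-type (unadjusted p 0.042, SE, edgeR), with an adjusted p of 1.00 in each. Averaged over the genotypes it was 0.38 ± 0.11 (adjusted p = 0.771). With the replicate number as a block it was 0.40 and passed the threshold (adjusted p = 0.0263), in a fit that called 0.164% of all genes. With a term for the library set it was also 0.40 (adjusted p = 0.0201), in a fit that called 0.146% of all genes.

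Bst2 (chr8:71534255-71537456), whose promoter stretch with overlapping GAAA repeats is printed above, stood at 4.24, 5.11, 4.14, 4.29 and 4.45 CPM in KO LPS, 3.62, 4.09, 3.17, 4.28 and 3.48 CPM in KO saline, 4.77, 4.06, 4.51, 3.78 and 4.89 CPM in WT LPS and 3.06, 2.95, 3.68, 2.49 and 4.34 CPM in WT saline. In each genotype 3 of 5 LPS libraries lay above every saline library. Its log2 fold change was 0.25 ± 0.15 in the knockout and 0.41 ± 0.15 in the wild-type (SE, unadjusted p 0.1 and 0.012, adjusted p = 1.00 in each, edgeR). Among the other membrane and antiviral effectors, Ifitm3 had 0.36 ± 0.21 in the knockout and 0.38 ± 0.21 in the wild-type, while Rsad2 (viperin, which makes a chain-terminating nucleotide) had 0.10 in the knockout and -0.12 in the wild-type. Cmpk2, its neighbour on chromosome 12, had -0.01 in the knockout and -0.08 in the wild-type. Samd9l, an antiviral restriction factor, had -0.19 in the knockout and 0.27 in the wild-type.

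Ifi44 (chr3:151730922-151749960) differed most between the genotypes in its response. The libraries had 0.362, 0.411, 0.273, 0.282 and 0.0627 CPM in KO LPS, 1.09, 0.469, 0.673, 0.575 and 0.276 CPM in KO saline, 0.631, 0.852, 0.258, 0.480 and 0.652 CPM in WT LPS and 0.594, 0.600, 0.213, 0.355 and 0.489 CPM in WT saline. The KO LPS libraries were the lowest group, though their values overlapped those of KO saline and WT LPS. These levels rest on 1 to 30 counts per library. The log2 fold change of LPS over saline was -1.10 ± 0.43 in the knockout and 0.36 ± 0.42 in the wild-type, and the difference between them, the interaction, was -1.46 ± 0.60 (SE, unadjusted p 0.025, adjusted p = 1.00, edgeR). Across the list, 0 of 34 members were called in the interaction by edgeR (0% of all genes) and 0 by DESeq2, and Ifi44 alone had an unadjusted p under 0.05 (1.11% of all genes). Above 0 in the interaction were 11 of 34 members (54.8% of all genes), with a median of -0.09, which was 0.04 without WT LPS replicate 1.

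The IFIT genes encode proteins that bind foreign RNA and block its translation. In the knockout 2 of the 4 were above 0 after LPS and in the wild-type 4 of 4, and none was called. Ifit1 (chr19:34640871-34650009) had 2.35, 1.20, 1.15, 1.07 and 1.13 CPM in KO LPS, 2.21, 1.49, 1.11, 1.15 and 1.44 CPM in KO saline, 2.88, 1.83, 1.74, 2.16 and 1.04 CPM in WT LPS and 1.78, 0.830, 1.01, 1.24 and 1.96 CPM in WT saline. KO LPS replicate 1, at 2.35 CPM, stood well above the other KO LPS libraries. The log2 fold change was -0.10 ± 0.31 in the knockout and 0.51 ± 0.31 in the wild-type, and the interaction -0.61 ± 0.44 (SE, adjusted p = 1.00 in each, edgeR). Ifit2 had -0.22 in the knockout and 0.09 in the wild-type.

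Ifit3 (chr19:34583531-34588731) and Ifit3b (chr19:34607970-34613401) are close copies, with transcripts 97.8% identical over 1700 bases, and reads can be split between them in a way that the sources used here do not state. Ifit3 had 6.52, 4.66, 4.31, 5.08 and 5.20 CPM in KO LPS, 3.66, 5.03, 4.76, 4.80 and 6.97 CPM in KO saline, 6.82, 5.76, 5.03, 5.58 and 3.13 CPM in WT LPS and 4.16, 2.95, 4.70, 3.37 and 5.32 CPM in WT saline. Ifit3b had 3.44, 2.40, 3.76, 2.94 and 2.38 CPM in KO LPS, 3.29, 2.22, 2.40, 2.24 and 2.76 CPM in KO saline, 2.01, 2.88, 2.64, 2.28 and 2.15 CPM in WT LPS and 1.78, 1.80, 1.49, 2.01 and 2.75 CPM in WT saline. After LPS the log2 fold changes were 0.04 ± 0.21 (Ifit3) and 0.21 ± 0.19 (Ifit3b) in the knockout, and 0.37 ± 0.21 and 0.29 ± 0.19 in the wild-type (SE). All groups overlapped for both genes.

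The sensors of foreign RNA had small differences. Ifih1 (MDA5), Ddx58 (RIG-I) and Dhx58 (LGP2, which modulates both) had log2 fold changes of -0.07, 0.06 and 0.37 in the knockout, and of 0.20, 0.15 and 0.22 in the wild-type, none of them called. Of the kinase and synthetase group, Eif2ak2 (PKR, which halts translation when it meets double-stranded RNA) had 0.04 in the knockout and -0.03 in the wild-type, and Oasl2, of the oligoadenylate synthetase family, 0.14 in the knockout and 0.23 in the wild-type. The untested Oas2 averaged 0.402 ± 0.491 CPM in KO LPS, 0.217 ± 0.0980 CPM in KO saline, 0.406 ± 0.409 CPM in WT LPS and 0.257 ± 0.346 CPM in WT saline, with replicate 1 the highest library in KO LPS (1.27 CPM), WT LPS (1.07 CPM) and WT saline (0.868 CPM). The untested Oas1a averaged 0.310 ± 0.0736 CPM in KO LPS, 0.267 ± 0.175 CPM in KO saline, 0.429 ± 0.261 CPM in WT LPS and 0.311 ± 0.126 CPM in WT saline, and its transcript is 97.6% identical to that of Oas1g over 1861 bases.

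Isg15, a ubiquitin-like protein that is attached to other proteins, had -0.25 ± 0.39 in the knockout and 0.19 ± 0.39 in the wild-type. It averaged 0.983 ± 0.566 CPM in KO LPS, 1.19 ± 0.462 CPM in KO saline, 1.35 ± 0.451 CPM in WT LPS and 1.18 ± 0.341 CPM in WT saline. The ubiquitin ligases gave 0.32 (Trim21, a receptor for antibody in the cytosol), 0.07 (Trim25, which acts on RIG-I), 0.30 (Trim30a) and 0.28 (Rnf213) in the knockout, and 0.20, 0.03, 0.41 and 0.43 in the same order in the wild-type. Parts of transcripts of Isg15 (482 bases), Trim30a (301 bases) and Sp100 (332 to 399 bases) also have near-identical copies at other genes (at least 95% identity). The exons of these 3 genes span 756, 4111 and 7556 bases in the same order. Their counts are uncertain to that extent. Rtp4, a transporter protein for receptors, had 0.01 in the knockout and 0.33 in the wild-type. In the ADP-ribosylation group, Parp14 had 0.56 ± 0.36 in the knockout and 0.67 ± 0.36 in the wild-type (SE, adjusted p = 1.00 in each, edgeR). Parp9, Dtx3l and Parp12 had -0.20, -0.18 and 0.07 in the knockout, and -0.08, 0.16 and 0.15 in the wild-type. The remaining members lay between 0.00 (Ifi35) and 0.14 (Sp100, of nuclear bodies) in the knockout, with Xaf1 (a partner of the apoptosis inhibitor XIAP) at 0.02 and Ifi27 at 0.05, and between -0.09 (Ifi27) and 0.31 (Xaf1) in the wild-type.

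The signalling genes upstream of the members showed no call between the 4 groups either. Of 9 interferon genes, 8 had no count in any library, among them Ifnb1, Ifna1, Ifna2 and Ifna4, and Ifng had 1 count in all. With no count in a whole group, the level may still be as high as 0.0276 CPM in KO LPS, 0.0284 CPM in KO saline, 0.0308 CPM in WT LPS and 0.0314 CPM in WT saline, and such limits cover counting error only. Of the receptors and kinases 10 of 11 were tested, and edgeR called 0 of them in any comparison of the 4 groups. Averaged over the genotypes, the smallest p after LPS among them was that of Stat3, with a log2 fold change of 0.14 ± 0.08 (SE, unadjusted p 0.088, adjusted p = 1.00, edgeR). Among the 10 tested sensing and adaptor genes it was that of Irf8, a factor of microglia and myeloid cells, with a log2 fold change of 0.37 ± 0.11 (SE, unadjusted p 0.0044, adjusted p = 1.00, edgeR). Among the 8 tested brakes of the pathway it was that of Ptpn6, a phosphatase of blood and microglial cells, with a log2 fold change of 0.55 ± 0.17 (SE, unadjusted p 0.0051, adjusted p = 1.00, edgeR).

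Markers of other cell types were compared beside these values. The 10 microglial markers summed to 359.6 to 583.6 CPM in KO LPS, 328.0 to 508.7 CPM in KO saline, 380.1 to 676.4 CPM in WT LPS and 344.8 to 637.4 CPM in WT saline. After LPS 9 of 10 were above 0 in the knockout (median log2 fold change 0.24) and 8 of 10 in the wild-type (median 0.12), none called. The 8 endothelial markers had 6 above 0 in the knockout (median 0.03) and 7 in the wild-type (median 0.21). Endothelial sums were 164.6 to 270.3 CPM in KO LPS, 148.8 to 231.8 CPM in KO saline, 229.8 to 285.1 CPM in WT LPS and 164.9 to 280.3 CPM in WT saline. The 10 markers of meningeal fibroblasts had 0 above 0 in the knockout (median -0.34) and 9 in the wild-type (median 0.39), and their median interaction was -0.87, against -0.09 for the members. Their sums were 118.1 to 173.5 CPM in KO LPS, 113.9 to 221.5 CPM in KO saline, 111.9 to 199.6 CPM in WT LPS and 103.1 to 157.7 CPM in WT saline. Of the 7 oligodendrocyte markers 6 were above 0 in the knockout (median 0.17) and 7 in the wild-type (median 0.22), with sums of 2775 to 4375 CPM in KO LPS, 2360 to 3683 CPM in KO saline, 3329 to 6299 CPM in WT LPS and 2906 to 4867 CPM in WT saline. Astrocyte markers had 1 of 8 above 0 in the knockout (median -0.11) and 6 of 8 in the wild-type (median 0.05). Choroid plexus markers had 1 of 6 above 0 in the knockout (median -0.23) and 2 of 6 in the wild-type (median -0.02), and those of hippocampal neurons 3 of 10 in the knockout (median -0.04) and 1 of 10 in the wild-type (median -0.14). After LPS edgeR called 0 markers of these lists in either genotype. The 12 markers of lymphocytes and blood myeloid cells, none with enough counts for a test, summed to 1.35 to 2.03 CPM in KO LPS and 0.575 to 1.05 CPM in KO saline, which did not overlap, and to 1.34 to 2.17 CPM in WT LPS and 0.600 to 1.71 CPM in WT saline, which did. None of these markers was at 0 in every library. The sums of the 12 blood markers rest on few counts. In KO LPS and KO saline, S100a8 had 38 and 10 counts in all, and S100a9 39 and 15. Cd4 had 37 and 27, and Cd8b1, the only one lower after LPS there, 0 and 1. No share over all genes was computed for such sums. The part of such cells in the differences of the members was not tested.

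The interferon-stimulated genes were also uneven from library to library. Against the median of the libraries of its own set, WT LPS replicate 1 lay above for 30 of 34 members, and it was the highest of its 8 libraries for 17 of 34. Next came WT LPS replicate 2 and WT saline replicate 5, each above the set median for 22 of 34 members, and the lowest library was WT saline replicate 2, above it for 8 of 34. In replicates 3 to 5 the range was narrower, with 13 to 21 members above the set median in KO LPS, 16 to 17 in KO saline, 15 to 20 in WT LPS and 13 to 22 in WT saline. WT LPS replicate 1 was also high in thalamus markers, whose 10 genes summed to 216.6 CPM there, 240.3 CPM in WT LPS replicate 4, 203.4 CPM in KO LPS replicate 1 and 206.6 CPM in KO saline replicate 4, against 132.8 to 183.2 CPM in the other libraries.

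**Figure D3:**
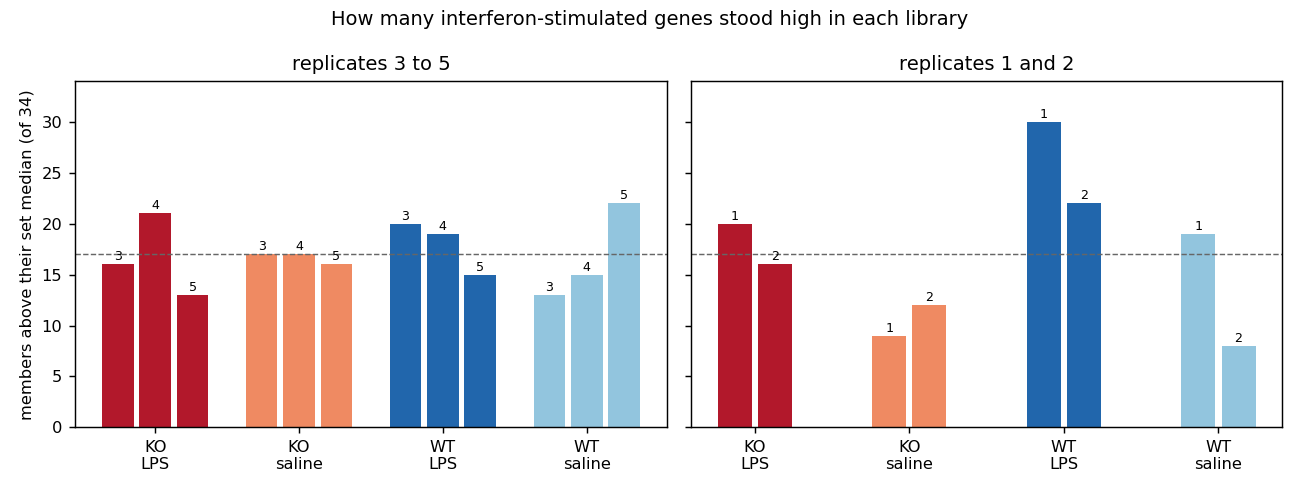
Bars give, for every library, how many of the 34 tested members lay above the median of its library set, with the replicate number over each bar and a dashed line at 17. WT LPS replicate 1 reaches 30, and WT saline replicate 2 has 8.

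Without WT LPS replicates 1 and 4 and KO LPS replicate 1, which an earlier analysis of these data had set aside for thalamus markers, 18 of 34 members were above 0 after LPS in the knockout (median 0.03) and 21 of 34 in the wild-type (median 0.07). That choice kept KO saline replicate 4, whose thalamus sum was above that of KO LPS replicate 1. Without all 4 libraries, an alternative chosen after seeing the data, 14 of 34 members were above 0 in the knockout, where the median turned to -0.03, and 21 of 34 in the wild-type (median 0.07). Within replicates 3 to 5 alone the median was 0.01 in the knockout and 0.09 in the wild-type, with 18 and 22 of 33 tested members above 0. Within replicates 1 and 2 alone, with 2 libraries per group, it was 0.18 in the knockout and 0.37 in the wild-type. There 24 and 33 of 36 were above 0. That wild-type comparison holds WT LPS replicate 1 and WT saline replicate 2. These had the most and the fewest members above their set median. Shares over all genes are not given for these refits. No member was called in any of these fits. The part of thalamic tissue in the wild-type median was not tested.

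**Figure D4:**
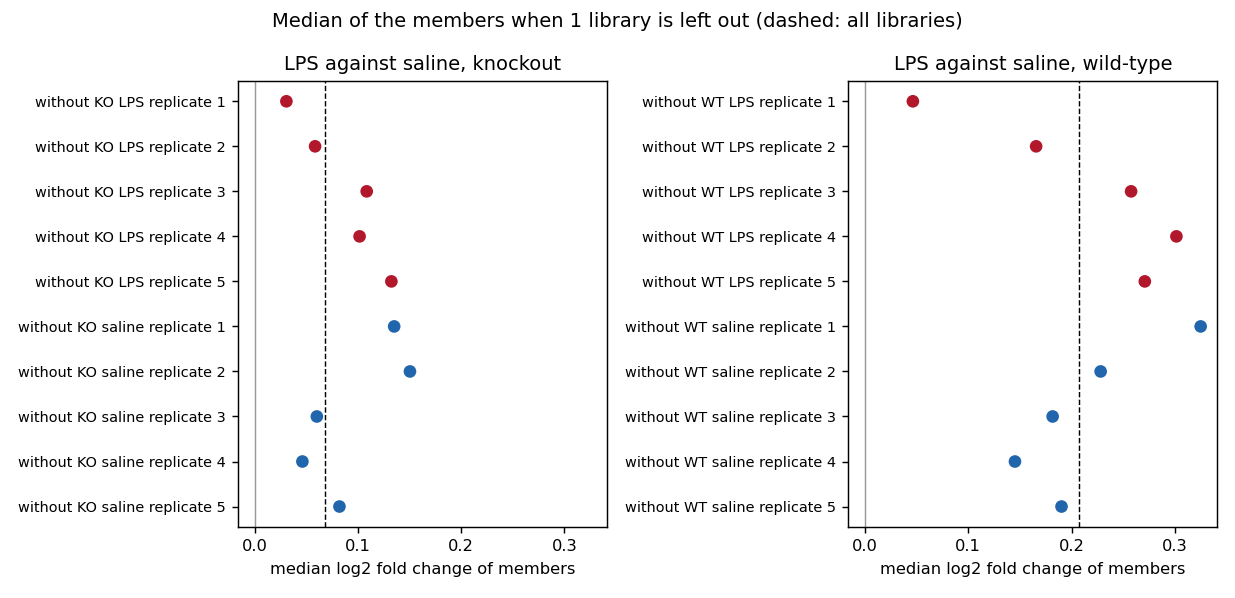
Points give the median log2 fold change of the tested members, LPS over saline, after 1 library was left out, for knockout and wild-type, with the value from all libraries as a dashed line. Leaving out WT LPS replicate 1 moved the wild-type median to 0.05, and the other single omissions in wild-type gave 0.15 to 0.33.

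Knockout against wild-type was the second comparison. After LPS 0 of 34 members were called by edgeR (0.146% of all genes) and 0 by DESeq2, with 2 at an unadjusted p under 0.05 (3.27% of all genes). After saline 0 of 34 were called by edgeR (0.171% of all genes) and 0 by DESeq2, again with 2 at an unadjusted p under 0.05 (2.67% of all genes). Averaged over the treatments 0 were called by both tools (0.439% of all genes by edgeR), and 4 had an unadjusted p under 0.05 (4.79% of all genes). Above 0 were 13 of 34 after LPS (50.5% of all genes) and 16 of 34 after saline (44.5% of all genes), with medians of -0.10 and -0.03, and averaged over the treatments 12 of 34 (46.2% of all genes). Both medians changed sign when 1 library was left out. That after LPS became 0.04 without WT LPS replicate 1, and that after saline 0.13 without WT saline replicate 1. No member had groups that did not overlap, against 0.457% of all genes higher and 0.372% lower after LPS, and 0.432% and 0.305% after saline.

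Trim25 (chr11:88999376-89020293) had the smallest p after saline. Its levels were 6.74, 6.85, 5.94, 6.27 and 7.40 CPM in KO LPS, 5.32, 6.56, 6.01, 7.22 and 6.52 CPM in KO saline, 7.57, 7.79, 8.96, 7.50 and 6.78 CPM in WT LPS and 6.95, 7.15, 7.47, 7.40 and 8.81 CPM in WT saline. In saline 4 of 5 knockout libraries lay below every wild-type library, and replicate 4 lay among the wild-type values. The log2 fold change of knockout over wild-type was -0.22 ± 0.11 after LPS and -0.26 ± 0.11 after saline (SE, unadjusted p 0.067 and 0.034, adjusted p = 1.00 in each, edgeR), and -0.24 averaged over the treatments (adjusted p = 0.514).

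Dtx3l (chr16:35926511-35939151), a ubiquitin ligase that works in a complex with PARP9, was on the other side of 0 after saline. The libraries had 4.02, 7.09, 5.45, 6.89 and 4.20 CPM in KO LPS, 7.39, 5.62, 6.54, 6.01 and 5.75 CPM in KO saline, 5.92, 4.59, 5.09, 6.90 and 3.85 CPM in WT LPS and 4.02, 5.63, 4.96, 4.44 and 4.47 CPM in WT saline. In saline 4 of 5 knockout libraries lay above every wild-type library. The log2 fold change was 0.07 ± 0.18 after LPS and 0.41 ± 0.18 after saline (SE, unadjusted p 0.7 and 0.034, adjusted p = 1.00 in each, edgeR), and its interaction was -0.34 ± 0.26. Parp9, which shares 458 exon bases with Dtx3l on the opposite strand, had -0.13 after LPS and -0.01 after saline, and without a stated strand setting reads from the shared bases cannot be told apart.

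Ifih1 (chr2:62595798-62646255) and Parp12 (chr6:39086410-39118349), a mono-ADP-ribosyltransferase, were below 0 in the knockout after LPS. Ifih1 had 2.50, 2.40, 1.96, 2.43 and 1.94 CPM in KO LPS, 2.28, 2.68, 2.60, 1.92 and 2.32 CPM in KO saline, 3.91, 3.45, 2.45, 2.58 and 2.35 CPM in WT LPS and 3.24, 2.44, 1.97, 2.49 and 2.75 CPM in WT saline. Parp12 had 8.95, 6.61, 7.74, 6.44 and 5.83 CPM in KO LPS, 6.92, 6.82, 7.07, 6.65 and 6.41 CPM in KO saline, 11.8, 10.5, 6.77, 8.88 and 8.28 CPM in WT LPS and 12.2, 9.18, 6.99, 5.68 and 7.46 CPM in WT saline. For both genes the knockout and wild-type values overlapped after LPS. The log2 fold changes after LPS were -0.39 ± 0.18 and -0.38 ± 0.18, and after saline -0.13 ± 0.18 and -0.30 ± 0.18 (SE, adjusted p = 1.00 in each, edgeR). Ifi44 had -0.999 ± 0.43 after LPS and 0.46 ± 0.42 after saline. Ifit3b had 0.32 ± 0.19 after LPS and 0.40 ± 0.19 after saline, and averaged over the treatments 0.36 ± 0.14 (adjusted p = 0.728), while its copy Ifit3 had 0.13 ± 0.15 (adjusted p = 1.00), and 0.06 to 0.19 with 1 library left out.

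Averaged over treatments, Isg15 and the ubiquitin ligases were all below 0 (5 genes), and Rtp4, which was listed in the same group, had 0.08. Above 0 were 0 of 4 transcription factors, 1 of 4 genes of the ADP-ribosylation group, 2 of 4 IFIT genes, 1 of 3 tested sensors, 1 of 2 tested genes of the kinase and synthetase group, 4 of 5 membrane and antiviral effectors and 2 of 6 other induced genes, none called. Of the markers, 0 of 8 of endothelial cells (median -0.18), 0 of 7 of oligodendrocytes (median -0.29), 1 of 10 of microglia (median -0.08) and 2 of 9 tested for thalamus (median -0.13) were above 0 in the same comparison. On the other side, 8 of 10 markers of meningeal fibroblasts (median 0.10), 5 of 6 of the choroid plexus (median 0.33) and 7 of 10 of hippocampal neurons (median 0.09) were above 0, and astrocytes had 4 of 8 (median 0.0049). Of these markers 1 was called, C1ql2 of the hippocampal neurons, which was lower in the knockout, and the part of these cells was not tested.

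The library sets were compared last. In replicates 3 to 5 against replicates 1 and 2, with the group as a term, 19 of 34 members were past the threshold in edgeR, against 64.3% of all genes. The sets were found in these same counts, so this describes the split and tests nothing independent. Higher in replicates 3 to 5 were 3 members (30.2% of all genes), Cmpk2, Ifi27 and Lgals3bp, and lower were 16 (34.1% of all genes). Above 0 were 6 of 34 (47.9% of all genes), and the median log2 fold change was -0.37 (-0.03 over all genes). Of the upstream genes 7 of 10 tested receptors and kinases were called (2 higher and 5 lower), 8 of 10 sensing and adaptor genes (2 higher and 6 lower) and 4 of 8 brakes (1 higher and 3 lower).

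Eif2ak2 had 1.30, 2.48 and 3.10 CPM (lowest, median and highest) in replicates 3 to 5, against 4.55, 5.42 and 6.34 CPM in replicates 1 and 2. Rnf213 had 3.46, 5.47 and 7.69 CPM (lowest, median and highest) in replicates 3 to 5, against 8.73, 10.1 and 16.0 CPM in replicates 1 and 2. Stat2 had 9.33, 11.6 and 13.9 CPM (lowest, median and highest) in replicates 3 to 5, against 15.8, 18.6 and 32.1 CPM in replicates 1 and 2, and Samd9l had 0.587, 1.27 and 1.92 CPM (lowest, median and highest) in replicates 3 to 5, against 1.95, 2.28 and 3.16 CPM in replicates 1 and 2. For these 4 genes the sets did not overlap, which held for 10.9% of all genes in the lower direction. Their log2 fold changes were -1.14 ± 0.11, -1.06 ± 0.13, -0.92 ± 0.13 and -0.94 ± 0.18 (SE), and Sp100 had -1.17 ± 0.20 with overlap. Cmpk2 had 22.7, 30.7 and 32.5 CPM (lowest, median and highest) in replicates 3 to 5, against 17.2, 21.1 and 25.7 CPM in replicates 1 and 2, a log2 fold change of 0.49 ± 0.07. The sets were of the same size in every group, so the split is shared by all groups and adds to the SD of each. For Eif2ak2 the SD within a group was 1.40 to 1.85 CPM, and within a set 0.509 CPM in replicates 3 to 5 and 0.648 CPM in replicates 1 and 2.

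**Figure D5:**
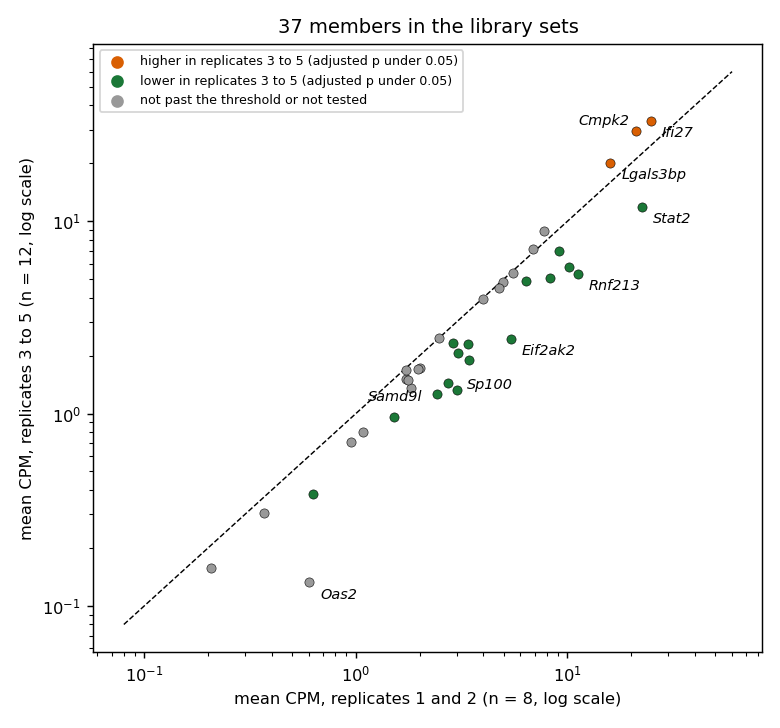
Each point is 1 of the 37 members, with its mean CPM in replicates 1 and 2 (n = 8) on the horizontal axis and in replicates 3 to 5 (n = 12) on the vertical axis, both on log scales, and the dashed line marks equal levels. Past the threshold, Cmpk2, Ifi27 and Lgals3bp lie above the line, and 16 members, among them Eif2ak2, Rnf213, Samd9l and Stat2, lie below it.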

How the data were processed

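Hippocampal RNA of 20 libraries (4 groups of 5) was sequenced. Per the labels, RNA was extracted with the RNeasy Plus Mini kit and 1 µg of it went into each library, made with a NEBNext Ultra kit. The submitters' processing notes name Trimmomatic 0.38, FastQC, MultiQC, featureCounts 1.6.0 and mm10. Which aligner, strand setting and annotation were used, and how reads with several positions were treated, is not given in the sources used here. The authors deposited raw counts per gene, whole numbers without normalization, for 55536 Ensembl genes, and all (100%) matched GENCODE M21.

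The count test was edgeR's (version 4.0.16, R 4.3.3; TMM, filterByExpr by group, robust quasi-likelihood fit, F test). All 20 libraries entered 1 fit, and p-values were adjusted by Benjamini-Hochberg over the 16419 genes tested, with a threshold of 0.05. CPM used the TMM factors. The SE is the absolute log2 fold change divided by the square root of F. On simulated counts without a split into library sets, the fit was tested on changes of known size. The real counts carry that split, so the simulation does not show how the fit performs with it. Promoter windows came from RefSeq (GRCm38.p6), and near-identical copies were found with blast 2.17.0 (at least 95% identity, 30% of the transcript and 300 bases).

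The members and the lists were chosen with earlier results of these data known. Genes given with every library were, in each single contrast and in LPS averaged over genotypes, the 3 members with the smallest p, plus Ifit3 and Ifit3b. Alternatives were DESeq2 1.42.0, its size factors in edgeR, no filter or at least 1 CPM in 5 libraries, the library set as a term or alone, a replicate block, a fit of only the groups compared, and libraries left out, with 1 alternative added after seeing the data (the 4 libraries highest in thalamus markers left out). Once group means were removed, same-numbered libraries correlated at 0.264 to 0.854 over 30 pairs (median 0.462). Within a set, libraries of different number had medians of 0.512 (replicates 1 and 2) and 0.434 (replicates 3 to 5). Those for the same number were 0.564 and 0.435 in that order, so these medians alone do not show a pairing by number. For 11 of 20 libraries the best correlated library of another group had the same number. A pairing by number is not settled by these values. The main fit had no block, and a pairing was assumed only in the alternative with the replicate block. The correlations follow the library sets. After removal of each group's mean within a set, the median for the same number was 0.0156 in replicates 3 to 5. In replicates 1 and 2 it was 0.214, and -0.214 for different numbers. Each group has 2 libraries in that set, so these 2 values are opposite by construction.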

Additional observations from a re-analysis of the deposited data

Results flagged for a closer look

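Of 152 sets of 5 libraries (the levels of the members, and their sum, in each group), 10 held a library far from the other 4. Dixon's outlier rule was used, which flags about 1 in 20 by chance when 5 values come from 1 normal distribution. Every group here mixes 2 library sets, so that rate is only a rough guide, and 10 of 152 lies near it. Replicate 1 libraries made up 8 of the 10. KO LPS replicate 1 was high for Irf9 (17.86 CPM, the others 4.91 to 7.54), Ifit1 (2.355 CPM, the others 1.07 to 1.20), Oas2 (1.268 CPM, the others 0.0545 to 0.274) and Oasl2 (3.912 CPM, the others 1.69 to 2.23). WT LPS replicate 1 was high for Irf1 (10.06 CPM, the others 4.56 to 5.68) and for the sum of all members (256.2 CPM, the others 187.2 to 203.0). WT saline replicate 1 was high for Irf9 (14.71 CPM, the others 4.70 to 6.00) and Oas2 (0.8683 CPM, the others 0.0534 to 0.184). Ddx58 was high in KO saline replicate 5 (6.027 CPM, the others 4.09 to 4.57) and Trim25 in WT saline replicate 5 (8.809 CPM, the others 6.95 to 7.47).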

How the results depend on the processing

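Under the alternatives that were run, 1 call of a member was added and none was lost among the comparisons of the study's groups, because none was called at the start. With the replicate block 1 member, Lgals3bp, was called after LPS over both genotypes (log2 fold change 0.4007, adjusted p = 0.0263; 0.164% of all genes), and with the library set as a term also 1, the same gene (0.3986, adjusted p = 0.0201; 0.146% of all genes). The block changed no other call of a member. Over all alternatives the log2 fold change of Lgals3bp averaged over the genotypes was 0.29 to 0.57 (adjusted p 0.0201 to 1.00), and that of Irf7 0.52 to 0.82 (adjusted p 0.065 to 1.00). With 1 library left out, the median of the members after LPS was 0.03 to 0.15 in the knockout and 0.05 to 0.33 in the wild-type. Without the 4 libraries highest in thalamus markers, an alternative added after seeing the data, the knockout median was -0.0263. The range with 1 library left out was -0.26 to 0.04 for knockout against wild-type after LPS, -0.08 to 0.13 after saline and -0.18 to 0.04 for the interaction. Between the library sets 16 to 22 members were called over the alternatives (19 with all libraries). Low counts limit Ifi44, Oas1a, Oas2 and Zbp1 most, which had between 0 and 35 counts in a library. Isg15 (4 to 51 counts), Rsad2 (7 to 39), Dhx58 (7 to 46) and Samd9l (9 to 80) were also low in some libraries.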
